A study of Mus musculus with 16 samples.

Results

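H3K4me1 was mapped by ChIP-seq in mouse dendritic cells (DC) and in 3T3 fibroblasts, and some sites carried a summit in both lists but a much higher one in DC. These sites, here called DC-higher pairs, are pairs of mutually nearest autosomal summits of the lists, 1000 bp or less apart, whose DC score divided by the 3T3 score was 2.18 or more. They numbered 2800 of 24061 autosomal pairs (11.6%, exact Clopper-Pearson 95% interval 11.2 to 12.05). The members were chosen by the score ratio, so their scores and ratios describe the rule and support nothing. The other 21261 pairs are called the remaining pairs. Among them, 2889 (12% of all pairs) had a 3T3 score at least 1.84 times the DC score and are called 3T3-higher pairs. The 18372 pairs between both thresholds had a median ratio of 1.09, and so had all pairs.

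The DC were unstimulated cells from bone marrow progenitors grown in SCF, IL-3 and IL-6. The progenitors carried a retroviral pSir-delta U6CHisD hairpin that targets JmjD2d (a demethylase acting on histones), with selection in histidinol. They were differentiated for 4 days in GM-CSF with SCF and for 4 more days in GM-CSF without SCF. The 3T3 fibroblasts, an established mouse line, were unstimulated and grown in standard culture. Both libraries used the anti-H3K4me1 clone CMA302. For the 3T3 sample, the labelled cell type is dendritic cells, but its title and description and the header of its list say 3T3, and it is used here as 3T3. The 2 lists used here come from a series of 16 samples, and the other 14 samples were not analysed here. Each cell type was 1 library with no replicate, so no difference between the cell types was tested. The effects of cell type and hairpin cannot be told apart.

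H3K4me1 is the monomethyl mark on lysine of histone H3 that lies over enhancers, whether active or poised, and along the flanks of active promoters. Enhancers differ widely between lineages, because transcription factors of each lineage recruit the methyltransferases that place the mark. Dendritic cells are antigen-presenting cells of the blood lineage, while fibroblasts are cells of connective tissue, so a site marked in both is one that the lineages share. No gene is assigned to any site, and cell type markers were not looked up, because the annotation at hand is of another build than mm9, the build of the lists.

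The DC-higher pairs combined tall DC summits with low 3T3 summits. Their DC score, taken as the height of the signal at the summit, had a median of 75.5, with the middle of the pairs (25th to 75th percentile) between 60 and 96 and extremes of 33 and 289. Their 3T3 score had a median of 24, between 21 and 30 for the middle of the pairs, with extremes of 14 and 74. The ratio had a median of 2.81 and reached 17.9, and 1608 members lay below 3, 736 from 3 to below 4, 394 from 4 to below 6 and 62 at 6 or more (50 below 8 and 12 above). The remaining pairs had medians of 37 in DC and 39 in 3T3. Within their own lists, 2302 of the DC summits in DC-higher pairs (82.2%) stood above the upper quartile of the DC list, and 1221 (43.6%) above its 90th percentile. Of their 3T3 summits, 2290 (81.8%) lay below the median of the 3T3 list and 1295 (46.25%) below its lower quartile. In 55 pairs (1.96%) the 3T3 summit was also above its list's upper quartile, and in 0 of 2800 was it above the 90th percentile. Most members were thus tall in DC and low in 3T3, and few were tall in both. The rule used both scores, so this describes the choice of members.

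**Figure D1:**
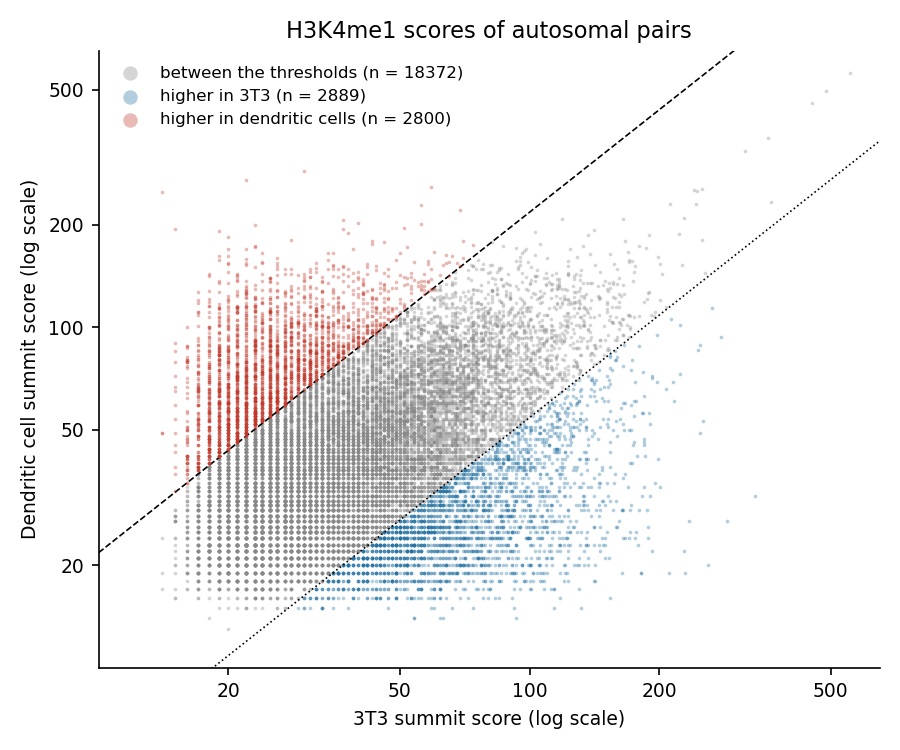
Each point is an autosomal pair, with the 3T3 score on the horizontal and the DC score on the vertical axis (both log scales); the dashed line is the ratio of 2.18 and the dotted line the opposite ratio of 1.84. The 2800 DC-higher pairs (red) lie at 3T3 scores of 74 or less.

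The DC score alone did not fix membership. None of the 8338 pairs with a DC score of 32 or less was a member. The lowest 3T3 score of any pair was 14, so the rule left almost no room for members there. The share of members was 3.60% at DC scores from 33 to 49, 18.6% from 50 to 64, 30.5% from 65 to 79 and 38.6% from 80 to 99. It was 46.2% from 100 to 129 and 52.0% (183 of 352) at 130 or more. Even among the tallest DC summits with a 3T3 partner, 169 of 352 were therefore not members. Because the choice favours tall DC summits, comparisons with the remaining pairs are also given within bands of DC score. The choice also favours low 3T3 summits (median 24, against 39 in remaining pairs), and 3T3 score was not matched. Within a band, members therefore differ from remaining pairs by their lower 3T3 scores, and the bands do not remove that part of the choice.

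The threshold cut through a continuous distribution. In the range from 1.98 to below 2.18 there were 808 pairs, and from 2.18 to below 2.38 there were 596. The members nearest above the threshold had a DC score of 48 and a 3T3 score of 22 (ratio 2.18), for example on chromosome 4 at 134407966 and chromosome 5 at 104234838. The nearest pair outside, on chromosome 13 at 49300502, had scores of 146 and 67 (also 2.18 when rounded). Another, on chromosome 3 at 21810107, had scores of 61 and 28. If the scores are read as read counts, the 95% counting interval of the ratio ran from 1.29 to 3.80 for scores of 48 and 22. By the same reading, 737 members (26.3%) had an interval wholly above 2.18, and 5799 remaining pairs (27.3%) had one that included it. Membership near the threshold was therefore not resolved within counting error.

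The pairs with the highest ratios spanned several chromosomes. The highest lay on chromosome 18 at 82707209, with a DC score of 250 against 14 in 3T3 (ratio 17.9, counting interval 10.4 to 33.1). The next lay on chromosome 12 at 25850242, with 195 against 15 (13.0), and on chromosome 9 at 119967426, with 272 against 22 (12.4). Also on chromosome 9, the pair at 61238661 had 192 against 19 (10.1). In each of these the 3T3 summit was below the lower quartile of its list (24), and those of 14 and 15 were close to its minimum of 13.

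Chromosome 5 held the next pairs, at 117824484 with 289 against 30 (9.63), the tallest DC summit of any member, and at 113542751 with 185 against 20 (9.25). The others were at 127029355 of chromosome 10 with 200 against 23 (8.70) and at 28569519 of chromosome 17 with 162 against 19 (8.53). The last were at 119821783 of chromosome 8 with 170 against 20 (8.50) and at 73442343 of chromosome 15 with 158 against 19 (8.32). In 4 of these 10 pairs the summits lay more than 500 bp apart.

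The DC and 3T3 summits of DC-higher pairs lay farther apart than those of other pairs. The rule limited this offset to 1000 bp but did not otherwise use it. Its median was 269 bp in DC-higher pairs, 173 bp in the remaining pairs, 167 bp in pairs between the thresholds and 219 bp in 3T3-higher pairs. An offset of more than 500 bp was found in 32.6% of DC-higher pairs (30.9 to 34.4) and 23.9% of remaining pairs (23.3 to 24.4). The share was larger for DC-higher pairs on 19 of 19 autosomes, and the median offset was larger in 6 of 6 bands of DC score. The gap was widest for the tallest DC summits: at scores of 130 or more the median offset was 415 bp in DC-higher pairs and 78 bp in remaining pairs, against 240 and 153 bp at scores from 50 to 64.

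Read the other way, the share of DC-higher pairs was 8.92% (8.13 to 9.75) among pairs whose summits coincided within 50 bp. It was 9.66% at 101 to 200 bp, 12.5% at 201 to 400 bp and 16.5% (14.9 to 18.2) at 801 to 1000 bp. The share of 3T3-higher pairs moved the same way over a smaller range, from 10.7% within 50 bp to 14.3% at 801 to 1000 bp. Intervals here and below cover counting error only and take the pairs as independent, which neighbouring pairs are not. These lists do not show how far a summit would move in a repeat library.

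DC-higher pairs had DC-higher pairs as neighbours more often than remaining pairs did. The score ratio of a neighbouring pair is the same measure at another locus in the same libraries, so these values are a description. The nearest other pair was also DC-higher for 521 of 2800 members (18.6%, 17.2 to 20.1), against 10.5% of remaining pairs (10.1 to 10.9) and 8.45% of 3T3-higher pairs (7.46 to 9.52). It was 3T3-higher for 8.46% of members, 11.8% of remaining pairs and 19.8% of 3T3-higher pairs. Each kind was thus a more frequent neighbour of its own kind than of other pairs. For most members the nearest pair was of neither kind and lay between the thresholds. The nearest pair was at a similar distance in both cases, a median of 12465 bp from members and 11092 bp from remaining pairs. Its median log2 ratio was 0.28 beside members, 0.12 beside remaining pairs and -0.08 beside 3T3-higher pairs. The share was higher for members than for remaining pairs on 19 of 19 autosomes and in 5 of 6 bands of DC score. The exception was the band from 33 to 49, with 8.95% for members and 10.1% for remaining pairs.

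From 5 kb outwards the excess of DC-higher neighbours shrank, mostly within 100 kb, but a small excess was still there at 500 to 1000 kb. Of other pairs 5 to 10 kb from a member, 19.9% (17.4 to 22.6) were DC-higher, against 10.7% (9.94 to 11.4) around remaining pairs. The values were 18.2 and 11.2% at 10 to 25 kb, 14.8 and 11.5% at 25 to 50 kb, and 13.8 and 11.6% at 50 to 100 kb. At 500 to 1000 kb they were 12.1 and 11.1%. Closer in, at 2 to 5 kb, they were 12.3% (9.44 to 15.6) and 7.86% (7.15 to 8.62), both lower than at 5 to 10 kb. Within 2 kb the order was opposite, on few pairs. There 0 of 28 other pairs around members were DC-higher (0 to 12.3%), against 28 of 684 (4.09%, 2.74 to 5.86) around remaining pairs. Another member lay within 25 kb of 23.2% of members and 14.4% of remaining pairs, and within 100 kb of 53.3 and 42.5%.

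**Figure D2:**
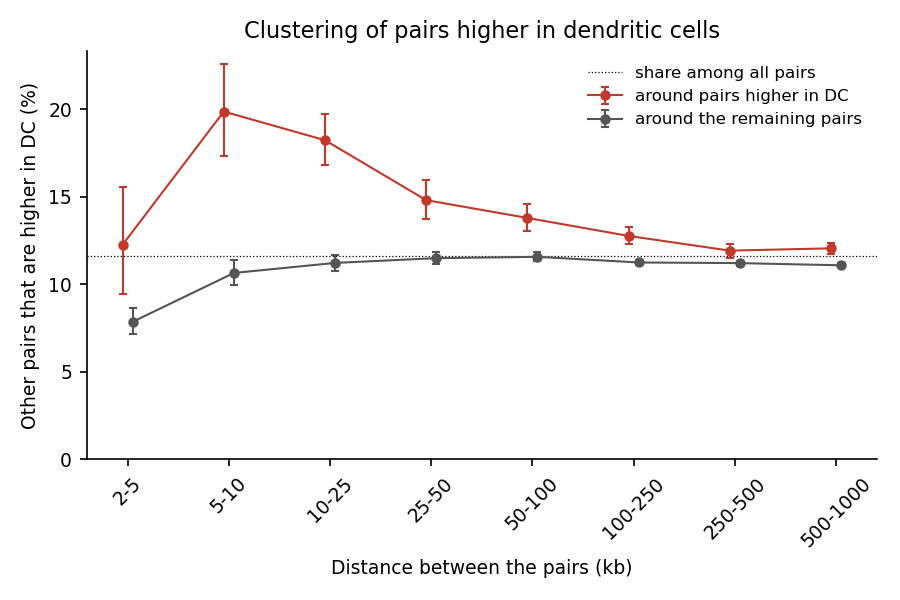
The vertical axis is the percentage of other pairs at a given distance (horizontal axis, kb) that are DC-higher, around DC-higher pairs (red) and around remaining pairs (grey), with exact 95% intervals; the dotted line is the 11.6% of all pairs. The red points fall from 19.9% at 5 to 10 kb to 12.1% at 500 to 1000 kb. The range within 2 kb is not drawn.

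The neighbour's share of DC-higher pairs went with the size of the ratio. It was 12.4% (11.3 to 13.7) beside pairs with ratios from 1.6 to below 2.18, which are not members, and 16.6% from 2.18 to below 2.5. It was 19.8% from 3 to below 4, 23.6% from 4 to below 6 and 27.4% (16.9 to 40.2) at 6 or more, where only 62 pairs stand. Beside the highest pair of all, on chromosome 18, the nearest pair lay 9524 bp away and had scores of 105 and 19. Beside the one on chromosome 15 at 73442343 it lay 15083 bp away, with scores of 178 and 46. For 3 of the 10 highest ratios the nearest pair was a member.

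Where several members followed each other with no other pair between them, they formed runs. Of the 2800 members, 862 (30.8%, 29.1 to 32.5) stood in 383 runs of 2 or more, and 1938 stood singly. There were 309 runs of 2, 57 of 3, 13 of 4, 3 of 5 and 1 of 6. The 3T3-higher pairs gave 415 runs that held 32.6% of them (30.9 to 34.4), with a longest run of 6 as well. Runs thus held a similar share of the pairs in either direction.

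The longest run comprised 6 members on chromosome 7 from 31739674 to 31945864 (mm9). Their DC scores were 141, 102, 109, 46, 75 and 99 in order along the chromosome, and their 3T3 scores 40, 33, 32, 19, 22 and 21. All DC summits but the one of 46 were above the upper quartile of the DC list. Between the ends of the run lay 18 summits found only in the DC list and 7 found only in the 3T3 list. The next pair before the run, 203532 bp away, had a ratio of 0.80, and the next after it, 48502 bp away, had 1.59.

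The run on chromosome 13 from 37617382 to 37808259 was of a similar kind, with 5 members. Their DC scores were 69, 79, 50, 116 and 97 and their 3T3 scores 26, 34, 19, 29 and 27. It held 18 DC-only summits with a median score of 52.5 and 5 3T3-only summits with a median of 20, of which the tallest scored 121. Both of these runs therefore lay in stretches where the DC list alone had many further summits. The other long runs were less one-sided or shorter.

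On chromosome 12 from 3747748 to 3833736, 5 members had DC scores of 59, 94, 141, 69 and 95 against 24, 28, 33, 21 and 23 in 3T3. This run held 5 DC-only and 5 3T3-only summits, an even number of each. On chromosome 15 from 50610998 to 50702582, 5 members had DC scores of 82, 64, 65, 52 and 136 against 36, 24, 19, 19 and 49 in 3T3. It held 6 DC-only summits and 1 3T3-only summit, and ended 5657 bp before a pair with a ratio of 0.81. The run on chromosome 5 from 33076778 to 33104581 had 4 members in 27804 bp. Their DC scores were 61, 100, 62 and 96 against 25, 38, 27 and 29 in 3T3. There were 13 runs of 4, and this run was named because ties went to the most members per kb. Its tight packing follows from that choice. It held 1 DC-only and 1 3T3-only summit.

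**Figure D3:**
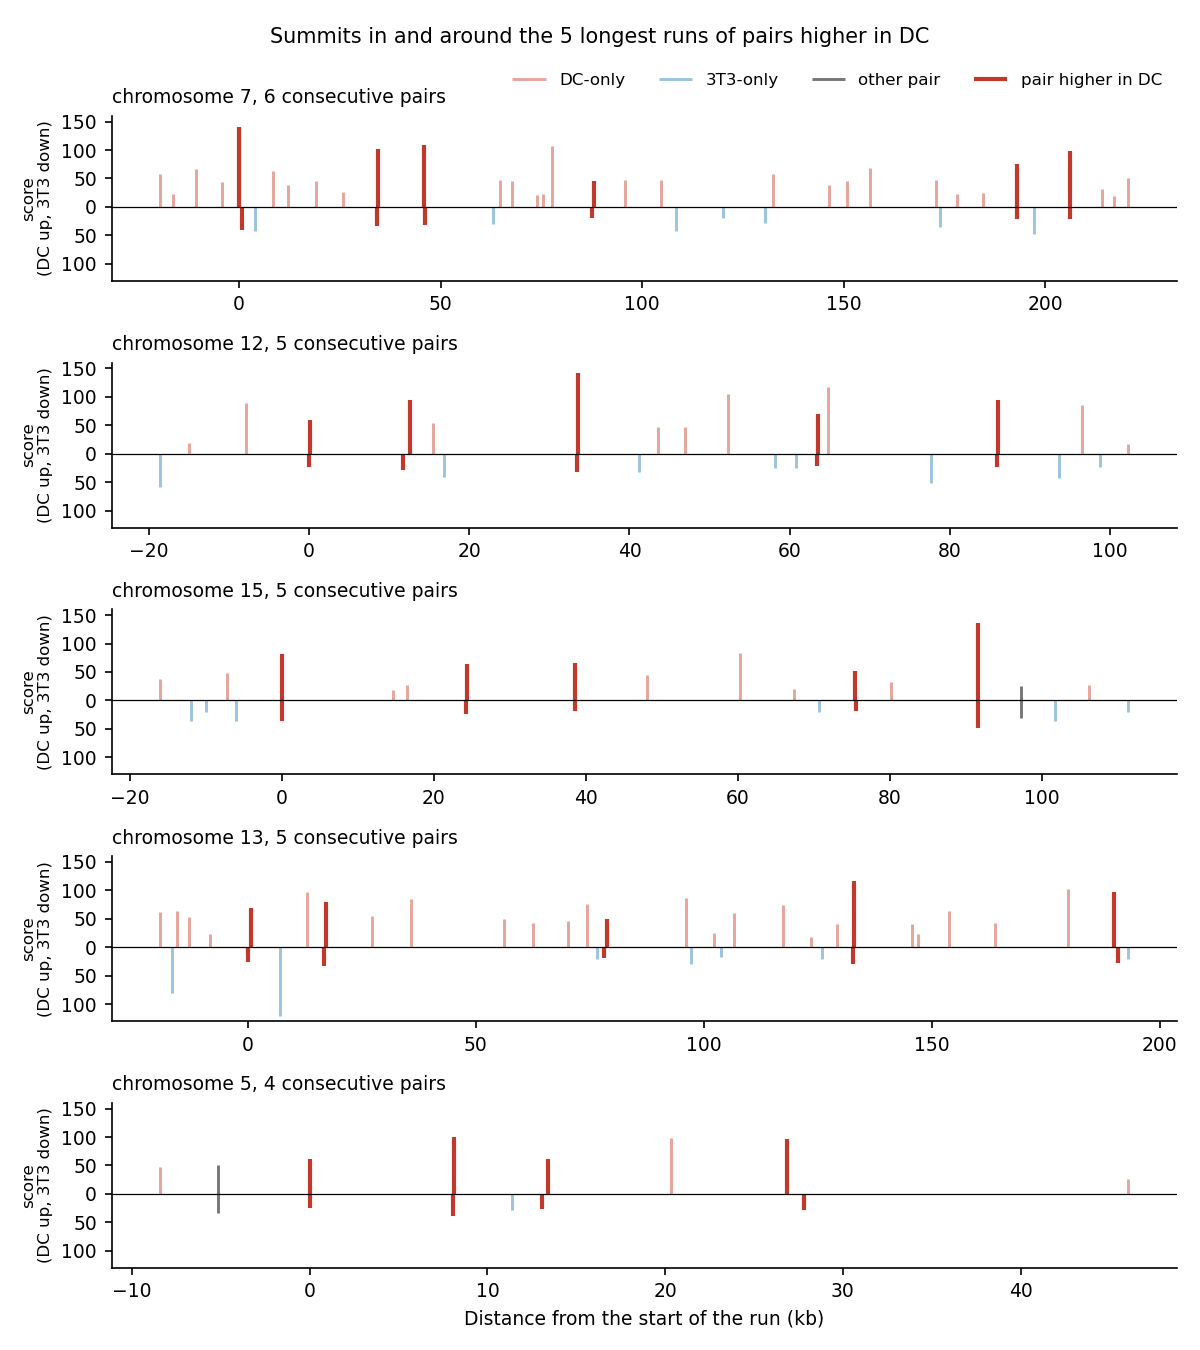
Each panel is one of the 5 longest runs, with the distance from its start in kb on the horizontal axis and scores on the vertical axis (DC upwards, 3T3 downwards); thick red lines are DC-higher pairs, grey lines other pairs, pale lines cell-type-only summits, drawn to 20 kb beyond the run. DC-only summits outnumber 3T3-only summits inside the runs on chromosomes 7 and 13, with 18 against 7 and 18 against 5. The run on chromosome 5 was picked among runs of equal length for its members per kb.

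In fixed windows of 100 kb, 1818 windows held 1 member, 355 held 2, 76 held 3 and 11 held 4, the most in any window. Of these 11, the 5 with the highest median ratio held no 3T3-higher pair. They were chosen by members and ratio and held few pairs other than members. The absence of 3T3-higher pairs therefore says little about their surroundings. On chromosome 16 from 91800001 to 91900000 all 4 pairs were members, with DC scores of 85, 115, 64 and 103 against 31, 21, 21 and 34 in 3T3. On chromosome 6 from 38800001 to 38900000, 4 of 7 pairs were members, with DC scores of 57, 61, 148 and 107 against 22, 21, 28 and 23 in 3T3. Another pair of that window, with scores of 46 and 23, was just short of the threshold.

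On chromosome 9 from 106200001 to 106300000, 4 of 7 pairs were members, with DC scores of 106, 86, 99 and 54 against 25, 31, 27 and 23 in 3T3. The other 3 pairs there had 74 and 57, 84 and 91, and 68 and 61, so members stood beside sites of even height. The windows on chromosome 7 from 20400001 to 20500000 and chromosome 14 from 75400001 to 75500000 each had 4 members among 6 pairs, with DC scores between 61 and 102 and 3T3 scores between 19 and 34.

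Summits that did not enter the rule also differed around DC-higher pairs. A summit is called DC-only or 3T3-only when no summit of the other list lies within 1000 bp; there were 54090 DC-only and 56452 3T3-only autosomal summits. Within 50 kb of DC-higher pairs, 58.8% of cell-type-only summits (58.2 to 59.3; 17360 of 29531) were DC-only. This compares with 53.7% (53.5 to 53.9) around remaining pairs, 55.0% around pairs between the thresholds and 46.2% (45.6 to 46.7) around 3T3-higher pairs. A summit near several pairs counts once for each, so these intervals are too narrow.

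Over all pairs, the averages differed more for DC-only than for 3T3-only summits. A DC-higher pair had on average 6.20 DC-only summits within 50 kb and a remaining pair 5.09, whereas the averages of 3T3-only summits were 4.35 and 4.39. The 4.39 combined 4.22 around pairs between the thresholds, fewer than around DC-higher pairs, and 5.48 around 3T3-higher pairs. Within bands of DC score, with 3T3 score not matched, both numbers differed. In 6 of 6 bands DC-higher pairs had more DC-only and fewer 3T3-only summits on average than remaining pairs. At scores from 80 to 99, for example, they had 6.45 against 6.01 DC-only summits and 4.51 against 5.15 3T3-only summits. Around 3T3-higher pairs they were 4.70 DC-only and 5.48 3T3-only summits. DC-only summits outnumbered 3T3-only summits around 63.7% of DC-higher pairs (61.9 to 65.5), 53.2% of remaining pairs (52.5 to 53.9) and 37.7% of 3T3-higher pairs (36.0 to 39.5). No DC-only summit was found within 50 kb of 1.21% of DC-higher pairs and 4.21% of remaining pairs. For 3T3-only summits these shares were 5.18 and 5.25%, the latter combining 5.80% of pairs between the thresholds and 1.73% of 3T3-higher pairs. DC-higher pairs were thus seldom without a DC-only summit nearby.

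Counting each cell-type-only summit once gave the same picture. Within 50 kb of a DC-higher pair lay 13801 of the DC-only summits (25.5%, 25.1 to 25.9) and 9579 of the 3T3-only summits (17.0%, 16.7 to 17.3). Within 50 kb of a 3T3-higher pair lay 19.6% of the DC-only and 21.9% of the 3T3-only summits. DC-only summits near DC-higher pairs had a median score of 38 (25th to 75th percentile 26 to 60), and those near remaining pairs alone a median of 34 (25 to 53). The 3T3-only summits had a median of 33 in both places.

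The DC-only share within 50 kb was higher around DC-higher pairs than around remaining pairs on 19 of 19 autosomes, by 1.62 to 7.63 percentage points. It was higher in 6 of 6 bands of DC score, for example 59.7 against 54.9% at scores from 50 to 64 and 55.6 against 51.2% at 130 or more. It did not, however, step up at the threshold. It was 46.4% around pairs with a ratio from 0.25 to below 0.543, 51.1% from 0.543 to below 0.8, 54.2% from 0.8 to below 1.2, and 57.2% from 1.2 to below 1.6. From 1.6 to below 2.18, just outside the members, it was 58.7% (58.2 to 59.3). Among the members it was 58.2% at ratios below 2.5, 60.0% from 2.5 to below 3, 59.1% from 3 to below 4 and 58.2% from 4 to below 6. The excess of DC-only summits was therefore shared with pairs moderately higher in DC.

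At ratios of 6 or more the DC-only share was 52.9% (49.1 to 56.6), with 369 DC-only and 329 3T3-only summits around 62 pairs. Around the 10 highest ratios there were 41 DC-only and 69 3T3-only summits, and 3T3-only summits were the more numerous around 8 of the 10. Within 50 kb of the member on chromosome 8 at 119821783 there were 1 DC-only and 13 3T3-only summits. The member on chromosome 12 at 25850242 was the opposite case, with 10 DC-only summits and 1 3T3-only summit. The most extreme ratios thus did not lie in the most DC-biased surroundings.

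**Figure D4:**
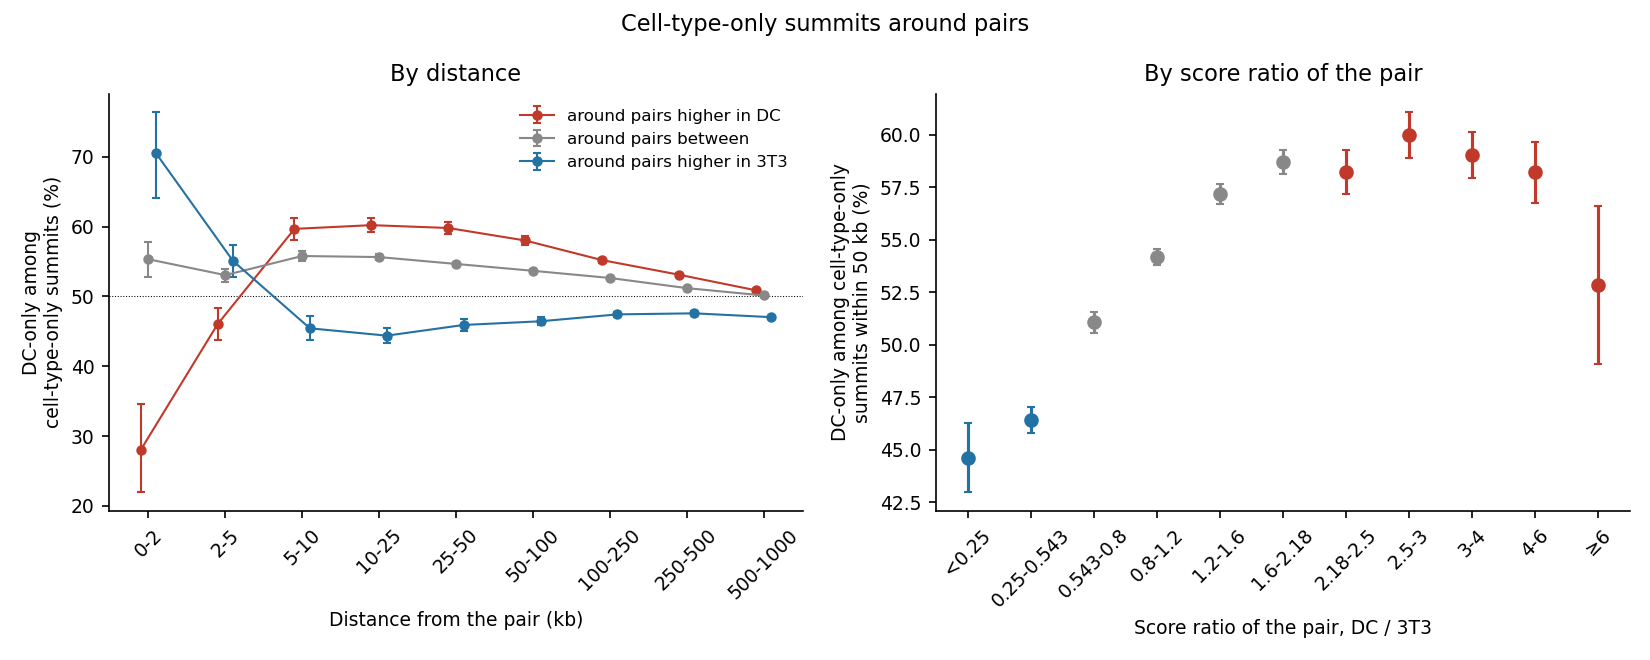
The vertical axes give the percentage of cell-type-only summits that are DC-only, with exact 95% intervals, by distance from the pair in kb (left, dotted line at 50%) and by the score ratio of the pair for summits within 50 kb (right); the vertical axes do not start at 0. Colours mark DC-higher pairs (red), pairs between the thresholds (grey) and 3T3-higher pairs (blue). Around DC-higher pairs the share is 28.0% within 2 kb and 60.2% at 10 to 25 kb, and on the right it is level from a ratio of 1.6 up to 6.

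Close to the pairs the order was opposite. Within 2 kb of DC-higher pairs 58 of 207 cell-type-only summits were DC-only (28.0%, 22.0 to 34.7), against 57.3% (54.9 to 59.6) around remaining pairs and 70.5% (64.1 to 76.3) around 3T3-higher pairs. At 2 to 5 kb the shares were 46.0, 53.3 and 55.1%. From 5 kb outwards DC-higher pairs had the highest share, at 59.7% at 5 to 10 kb against 54.3% for remaining pairs and 45.4% for 3T3-higher pairs. It was 60.2% at 10 to 25 kb, 58.0% at 50 to 100 kb, 55.2% at 100 to 250 kb and 50.9% at 500 to 1000 kb. The remaining pairs fell from 54.0 to 49.7% between 10 to 25 and 500 to 1000 kb. Within 5 kb as a whole, the share was 44.3% (42.2 to 46.4) for DC-higher and 53.8% (53.0 to 54.6) for remaining pairs, and lower for DC-higher pairs on 19 of 19 autosomes.

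In the 5 kb nearest to the pair, DC-higher pairs had on average 0.339 DC-only and 0.427 3T3-only summits, and remaining pairs 0.382 and 0.329. The spacing within each list moved with this. A further DC summit, shared or not, lay within 2 kb of the DC summit in 2.82% of DC-higher pairs (2.24 to 3.50) and 8.69% of remaining pairs (8.31 to 9.07). For 3T3 summits the shares were 6.54 and 6.40% over all bands of DC score. In 3T3-higher pairs it was the 3T3 summits that had fewer close companions, 3.43% against 7.75% for DC summits. The share with a further DC summit within 2 kb also fell with DC score, among remaining pairs from 9.19% at 33 to 49 to 2.10% at 80 to 99. Within bands of DC score it was lower for DC-higher than for remaining pairs in 4 of 6. The values were 6.61 against 9.19% at 33 to 49 and 3.44 against 6.83% at 50 to 64. It was not lower at 65 to 79 (3.68 against 3.36%) or at 100 to 129 (1.59 against 1.57%). A further 3T3 summit within 2 kb was more frequent at DC-higher than at remaining pairs in 4 of 6 bands, with 8.82 against 5.09% at scores from 50 to 64 and 5.92 against 1.57% from 100 to 129. In the lowest band the values were 6.61 and 7.15%, and in the highest 2.73 and 2.96%. No 2 autosomal summits of a list lay closer than 566 bp in DC and 577 bp in 3T3. The part of summit spacing in the reversed order near the pairs was not tested.

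Chromosomes differed in their share of DC-higher pairs. Chromosome 12 had the highest, 139 of 779 pairs (17.8%, 15.2 to 20.7), followed by chromosome 4 with 15.3% (13.4 to 17.3), chromosome 7 with 15.2% (13.3 to 17.2) and chromosome 1 with 15.1% (13.1 to 17.2). The intervals of these 4 overlapped each other and lay above the 11.6% of all pairs. Chromosome 8 had the lowest, 110 of 1400 pairs (7.86%, 6.50 to 9.39), followed by chromosome 19 with 8.88% (7.14 to 10.9) and chromosome 17 with 9.19% (7.65 to 10.9). Chromosomes 11 (10.1%, 8.80 to 11.5) and 6 (10.03%, 8.49 to 11.7) came next. The intervals of chromosomes 8, 19, 17 and 11 lay below 11.6%. The other autosomes lay between 10.1 and 13.0%, with intervals that included 11.6%.

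The share of 3T3-higher pairs ran mostly the other way. It was 22.8% (20.6 to 25.1) on chromosome 8 and 17.6% on chromosome 13, and 6.84% on chromosome 4 and 6.92% on chromosome 1. The median log2 ratio of all pairs of a chromosome moved with both, from 0.42 on chromosome 12 and 0.35 on chromosome 7 to -0.07 on chromosome 13 and -0.35 on chromosome 8. When a pair was instead required to exceed 2 times the median ratio of its own chromosome, chromosome 8 had the highest share (14.8%) and chromosome 12 the lowest (9.50%), while the share of all pairs stayed at 11.6%. The order of the chromosomes in DC-higher pairs therefore moved with the median of all their pairs. What shifts that median was not tested.

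**Figure D5:**
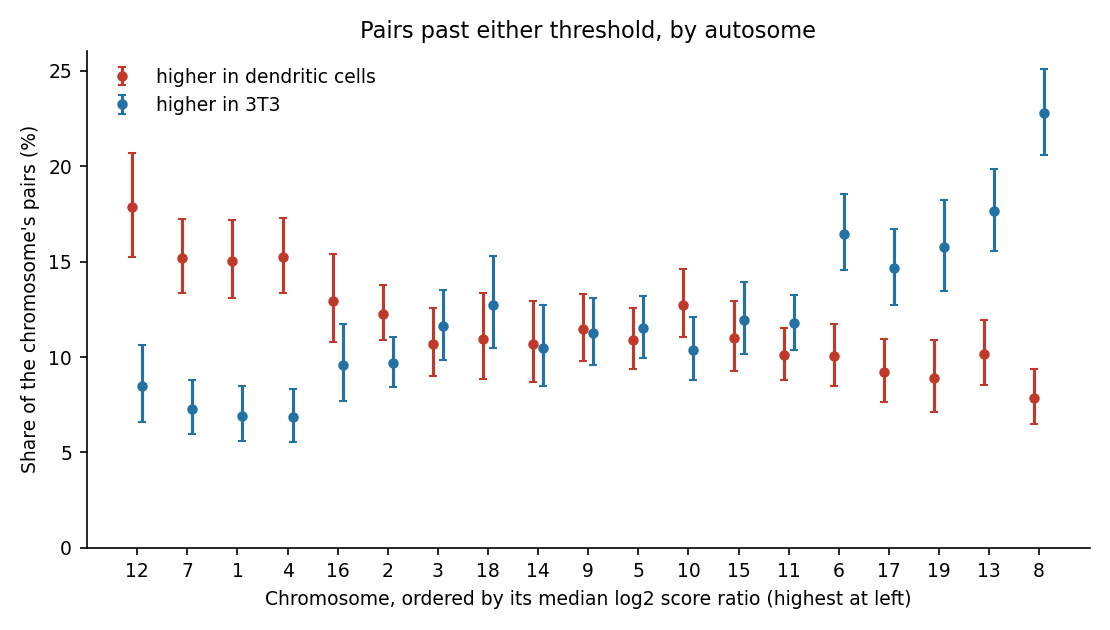
The vertical axis is the percentage of a chromosome's pairs that are DC-higher (red) or 3T3-higher (blue), with exact 95% intervals, for the 19 autosomes ordered by their median log2 score ratio (highest at left). Red runs from 17.8% on chromosome 12 to 7.86% on chromosome 8, and blue is 8.47 and 22.8% on these chromosomes. The lowest blue share is 6.84%, on chromosome 4.

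The surroundings of DC-higher pairs were also compared with those of remaining pairs within the chromosomes at both ends. On chromosome 12, 67.2% (64.7 to 69.7) of the cell-type-only summits within 50 kb of DC-higher pairs were DC-only, against 61.2% (59.9 to 62.4) around remaining pairs. On chromosome 8 the values were 46.6% (43.8 to 49.4) and 44.9% (44.1 to 45.8), with overlapping intervals. The nearest pair was DC-higher for 23.7% of members (16.9 to 31.7) and 15.6% of remaining pairs (12.9 to 18.7) on chromosome 12, and for 10.0% (5.10 to 17.2) and 7.05% (5.72 to 8.59) on chromosome 8. These intervals overlapped on both chromosomes. On chromosomes 12 and 8 the members had median DC scores of 78 and 71, 3T3 scores of 24 and 23, and ratios of 2.74 and 2.73. The rule used these values, so their likeness describes the rule.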

How the data were processed

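The deposited values are 1 score per summit, read here as a signal, namely peak height at that position. The file headers do not name this score, and every value was a whole number. Per the submitters' processing notes, the authors used Bowtie and MACS 1.4 with the mm9 build. Per the file headers, the calling p threshold was 1e-4, with a shift of 150 bp and with neither a fragment model nor a local background. Any use of input DNA in calling was not given in the sources used here. Per the labels' protocols, fragments of about 300 bp were amplified for 18 PCR cycles and read as single reads of 36 bp. The sources used here give no read totals. Depth is therefore unknown, and no scaling between the lists is recorded or was applied; ratios are those of the deposited scores.

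Positions are 1-based in mm9. Pairs, neighbours and runs were computed with Python 3.11.15, numpy 2.4.6, pandas 2.3.3 and scipy 1.17.1, and plotted with matplotlib 3.10.9. Distances run from the midpoint of the pair's summits. Near but unpaired summits (63 in DC and 45 in 3T3), which lie within 1000 bp of a summit of the other list without being mutually nearest, entered neither the pairs nor the cell-type-only summits. Shares carry exact Clopper-Pearson 95% intervals. The code was tested on simulated data. With 1 library per cell type no test between them was made. The members, thresholds and comparisons were chosen with earlier results of these data known. Named sites are the 10 highest ratios, the 5 longest runs (ties by members per kb) and the pairs nearest the threshold. The 5 windows of 100 kb with most members (ties by median ratio) are also named. Alternatives varied the distance within a pair, the threshold, low and high scores, merging, the neighbour distance and the chromosomes kept. Gene names, markers and sequences had been planned and were not used here, because the reference at hand is GRCm38.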

Additional observations from a re-analysis of the deposited data

How the results depend on the processing

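No replicate could be left out and no paired analysis was possible because each cell type had 1 library. Across the alternatives tried, the excess of DC-higher neighbours (8.08 points over remaining pairs) kept its direction in 10 of 10, from 4.54 to 8.44 points. The excess of DC-only summits (5.09 points) did so in 12 of 13, the deficit within 5 kb (-9.50 points) in 9 of 9 and the excess of offsets over 500 bp (8.75 points) in 6 of 6. The exception was a neighbour distance of 10 kb, which takes in the nearest 5 kb and gave -0.24 points (53.8 against 54.1%). The offset excess was not computed for other maximum distances within a pair, the setting that bounds the offset. At 25 kb the DC-only excess was 3.78 points (57.8 against 54.0%), and at 100 kb the remaining pairs gave 53.2%. From 5 to 50 kb, a range chosen after seeing the data, it was 6.23 points (59.9% for members). A ratio of 3 or more called 4.95% of pairs, and 7.83% on chromosome 12 and 3.21% on chromosome 8. It gave an excess of DC-higher neighbours of 6.49 points (10.9% of members), a DC-only excess of 4.33 (remaining pairs 54.1%), a deficit within 5 kb of -13.6 and an offset excess of 11.1. Pairs within 250 bp gave 9.59% members (5.87% on chromosome 8), 13.8% of members with a member as nearest pair (excess 4.54) and a DC-only excess of 4.44 (57.6 against 53.2%). Pairs within 500 bp gave 10.4% members (14.7% on chromosome 12), 17.1% of members beside a member and a DC-only excess of 4.48 (57.8 against 53.4%). Pairs within 2000 bp gave 12.8% members and a DC-only excess of 6.67 (60.9 against 54.2%). With both scores at or above 20, 10.5% were members, and 6.47% on chromosome 8. Relative to 2 times the chromosome's median ratio, chromosome 12 gave 9.50% and chromosome 8 14.8%, with a DC-only excess of 3.53 (57.4% for members). Without chromosomes 8 and 12 the remaining pairs gave 54.1%. Why these values moved was not tested. The depth is unknown and peaks were called at a fixed threshold, so a site without a summit in one list means only that none was called there. A low 3T3 score near the minimum of 13 is the least precise part of a ratio.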

Other observations

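The X chromosome was outside the rule and is given here as values. Of its 315 pairs, 15 (4.76%, 2.69 to 7.73) had a DC score at least 2.18 times the 3T3 score, and 10 (3.17%) were 3T3-higher. Its median log2 ratio was 0.14, close to that of the autosomal pairs (0.12), although both shares lay below those of every autosome's DC-higher and 3T3-higher pairs. The 15 pairs had median scores of 61 in DC and 20 in 3T3, and the highest ratio, at 12169419, was 4.35 from scores of 74 and 17. Around them 98 of 141 cell-type-only summits within 50 kb were DC-only (69.5%, 61.2 to 77.0).

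In windows of 5 Mb with at least 20 pairs, a size chosen after the chromosome values were seen, the share of DC-higher pairs had a median of 11.3% over 376 windows (25th to 75th percentile 8.13 to 14.8%), and 6 windows had none. The highest shares were both on chromosome 12, with 10 of 29 pairs (34.5%, 17.9 to 54.3) from 1 to 5000000 and 27 of 86 (31.4%, 21.8 to 42.3) from 110000001 to 115000000. The first of these windows includes the run of 5 members described on that chromosome. The next were on chromosome 4 from 5000001 to 10000000, with 6 of 21 pairs (28.6%, 11.3 to 52.2), and on chromosome 1 from 105000001 to 110000000, with 10 of 36 (27.8%, 14.2 to 45.2). The intervals make no allowance for the choice of these windows by the same counts.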
